A study of Mus musculus with 42 samples.

Results

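The genes described are 6 CXC chemokines, Cxcl1, Cxcl2, Cxcl3, Cxcl5, Pf4 and Ppbp, chosen by name as a family, with earlier results of these data known. They are read by 8 of the 45101 probe sets of the arrays (3 for Cxcl1 and 1 for each other gene), and they make up 6 of the 18194 genes analysed. Synovial fibroblasts, which build the lining of joints, had been grown from female BALB/c mice with arthritis induced by cartilage proteoglycan in the adjuvant dimethyldioctadecyl-ammonium bromide. Of the cultures, 15 were wild-type and 27 are labelled TSG-6 knockout, that is, deficient in Tnfaip6, which encodes the hyaluronan-binding protein TSG-6. Each of the 42 cultures gave 1 array.

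The 12 groups are formed by genotype and treatment. The wild-type cultures comprise 5 left untreated and 2 for each of 5 treatments, and the knockout-labelled cultures comprise 8 left untreated, 3 given TSG-6 and 4 for each remaining treatment. The agents were the cytokine TNFa (5 ng/ml), bacterial lipopolysaccharide, LPS (200 ng/ml), recombinant mouse TSG-6 (120 ug/ml), hyaluronan, HA (24 ug/ml), and TSG-6 together with HA at those doses. Exposure lasted 12 h in all treated groups. Untreated and treated cells alike came from arthritic joints, had been passaged up to 6 times and were starved overnight in 0.5% serum, so no group holds cells of a healthy joint. The labels call the cultures biological replicates without naming an animal for each, so the p-values measure the spread between these cultures, which may be technical.

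CXC chemokines are small secreted proteins that direct leukocytes along gradients. In mice, Cxcl1, Cxcl2, Cxcl3 and Cxcl5 signal through the receptor Cxcr2 and draw neutrophils into tissue, and fibroblasts are among their sources in inflamed joints. Ppbp is the precursor of the platelet chemokine that also acts on Cxcr2, whereas Pf4, platelet factor 4, is stored in platelet granules and binds heparin-like chains. The transcription factor NF-kB, which TNFa and LPS activate, is a textbook inducer of Cxcl1 and Cxcl2. The members lie beside each other on mouse chromosome 5, in the order Cxcl5, Ppbp, Pf4, Cxcl3, Cxcl1, Cxcl2 in the RefSeq table of assembly GRCm38.p6, with the related gene Cxcl15 between Cxcl3 and Cxcl1.

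RefSeq (GRCm38.p6) promoter windows were at hand for 5 of the 6 members, all except Cxcl5. The 130 bases before the transcription start are shown for these 5, because Cxcl1, Cxcl2 and Cxcl3 moved together in most comparisons. Ppbp did not follow them. Pf4 correlated with Cxcl2 at r = 0.94 over wild-type and 0.71 over knockout-labelled arrays, but at -0.30 over all arrays. Within the genotypes that was as close as Cxcl1 and Cxcl2 (0.92 and 0.63). Capitals mark GGGAATTTCCC, the longest word that Cxcl1, Cxcl2 and Cxcl3 share in the 250 bases before their starts, which contains a form of the NF-kB site, and the TATA-box-like words TATAAA and ATAAAAG, each on the strand of the gene.
Cxcl1, chr5:90891115-90891244, plus strand: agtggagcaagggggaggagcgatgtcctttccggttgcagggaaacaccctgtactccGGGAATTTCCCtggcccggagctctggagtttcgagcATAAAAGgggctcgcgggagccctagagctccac
Cxcl2, chr5:90903769-90903898, plus strand: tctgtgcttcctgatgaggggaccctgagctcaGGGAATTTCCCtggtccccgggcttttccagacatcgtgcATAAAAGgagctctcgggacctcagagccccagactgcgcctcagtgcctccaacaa
Cxcl3, chr5:90785971-90786100, plus strand: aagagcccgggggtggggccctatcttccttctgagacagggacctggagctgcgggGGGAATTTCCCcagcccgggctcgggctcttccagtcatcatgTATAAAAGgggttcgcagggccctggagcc
Pf4, chr5:90772305-90772434, plus strand: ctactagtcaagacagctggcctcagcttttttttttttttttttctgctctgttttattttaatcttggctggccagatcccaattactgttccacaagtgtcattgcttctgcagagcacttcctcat
Ppbp, chr5:90768388-90768517, plus strand: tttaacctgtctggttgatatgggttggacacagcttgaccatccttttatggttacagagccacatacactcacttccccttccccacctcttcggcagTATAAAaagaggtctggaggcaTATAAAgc

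Motifs were searched on both strands in windows from 250 bases before to 50 bases after the start. The 11-base word GGGAATTTCCC was found in 14 of 32851 such windows (0.0426%), among them those of Cxcl1, Cxcl2 and Cxcl3, from which it was taken, and not those of Pf4 and Ppbp. It lies at -71 to -61 in Cxcl1, at -97 to -87 in Cxcl2 and at -73 to -63 in Cxcl3, with the base before the start as -1. TATAAA, present in 13.6% of windows, was found in Cxcl3 and at a pair of places in Ppbp. ATAAAAG, present in 5.42%, was found on the gene strand in Cxcl1, Cxcl2 and Cxcl3, where in Cxcl3 it overlaps TATAAA, and on the opposite strand in Ppbp. The AP-1 pattern TGANTCA, present in 7.81%, was found in Ppbp alone among the members searched. After global alignment of the 300-base windows, Cxcl2 and Cxcl3 shared 64.3% of bases, Cxcl1 and Cxcl3 59.0%, and Cxcl1 and Cxcl2 58.3%, against 45.3% to 55.3% for the pairs with Pf4 or Ppbp. These matches describe the letters only, and no binding was measured.

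The deposited values are log2 expression, centred so that every probe set has a median of 0 over the 42 arrays. A value is therefore a difference from that median, and levels cannot be compared between genes. Other genes split the arrays of each genotype into culture sets a and b (8 and 7 wild-type arrays, 14 and 13 knockout-labelled arrays), which no label names, and both sets hold untreated and treated cultures. The split rests on 32 probe sets in wild-type and 12 in knockout-labelled arrays. They were among 34 and 17 with a gap of at least 1 and untreated arrays on both sides, as the search required. The probe set for 18S ribosomal RNA exceeded 1 on 15 arrays (5 wild-type and 10 knockout-labelled). Tnfaip6 itself ranged from -0.55 to 0.45 in wild-type and from -0.41 to 0.89 in knockout-labelled arrays and was not lower in the latter. Where its probe set lies relative to the disruption was not known, so it does not check the labels. Of 8 endothelial marker genes, all measured, 7 were lower in untreated knockout-labelled than in untreated wild-type cultures, with a median difference of -4.55. The mean of the 8 ranged from 2.75 to 3.65 over wild-type arrays and from -1.53 to 0.27 over knockout-labelled arrays, without overlap. Of 12 fibroblast markers, 5 were higher and 4 lower in untreated knockout-labelled cultures. In this untreated comparison 37.5% of all 18194 genes differed, with 3870 higher and 2958 lower. Centred values cannot show whether a marker is absent, so neither the fibroblast label nor the share of any other cell type could be checked by level. In cultures measured as a whole, fewer cells of a type and less RNA per cell cannot be told apart.

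Untreated wild-type cultures had the lowest values of Cxcl1, Cxcl2 and Cxcl3 in the series. Cxcl2 stood at -3.39, -3.27, -3.37, -3.45 and -3.44 on the 5 untreated wild-type arrays, at 0.38 and -0.04 with TNFa, at 0.71 and 1.15 with LPS, at -1.07 and -1.57 with TSG-6, at -0.93 and -1.11 with HA, and at -0.57 and -0.79 with TSG-6 and HA. Every treated wild-type array lay above every untreated one. Cxcl3 stood at -3.28, -2.81, -2.63, -2.83 and -2.81 untreated, at 0.24 and 0.42 with TNFa, at 0.52 and 0.57 with LPS, at -0.99 and -1.31 with TSG-6, at -1.03 and -1.13 with HA, and at -0.50 and -0.97 with the combination. Its treated and untreated wild-type arrays did not overlap either.

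Cxcl1 stood at -1.83, -1.45, -1.61, -2.27 and -2.32 in untreated wild-type cultures, at -0.64 and -0.85 with TNFa, and at -0.00 and -0.05 with LPS. Its values with TSG-6 were -0.53 and -0.89, with HA -0.49 and -0.74, and with TSG-6 and HA -0.40 and -0.64. The treated arrays were again all above the untreated ones, and the LPS arrays were the highest. Cxcl5, which epithelial and stromal cells make in inflamed tissue, stood at -1.09, -0.83, -0.76, -1.57 and -1.70 untreated, at -0.51 and -1.25 with TNFa, at -0.12 and -0.30 with LPS, at -0.45 and -0.84 with TSG-6, at -0.38 and -0.78 with HA and at -0.40 and -0.65 with the combination. Its TNFa, TSG-6 and HA arrays overlapped the untreated ones, and the lower value of each treated pair belonged to the array of the second culture set.

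Pf4 ran from 1.76 to 2.27 in untreated wild-type cultures (1.76, 2.27, 2.15, 2.24 and 2.18). It stood at 4.06 and 4.26 with TNFa, at 4.77 and 5.38 with LPS, at 2.90 and 2.58 with TSG-6, at 3.70 and 3.61 with HA, and at 3.08 and 3.41 with TSG-6 and HA. All treated wild-type arrays exceeded the untreated ones, and the order of the group means was LPS, TNFa, HA, TSG-6 with HA, TSG-6, untreated, with no overlap between neighbours in that order.

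**Figure D1:**
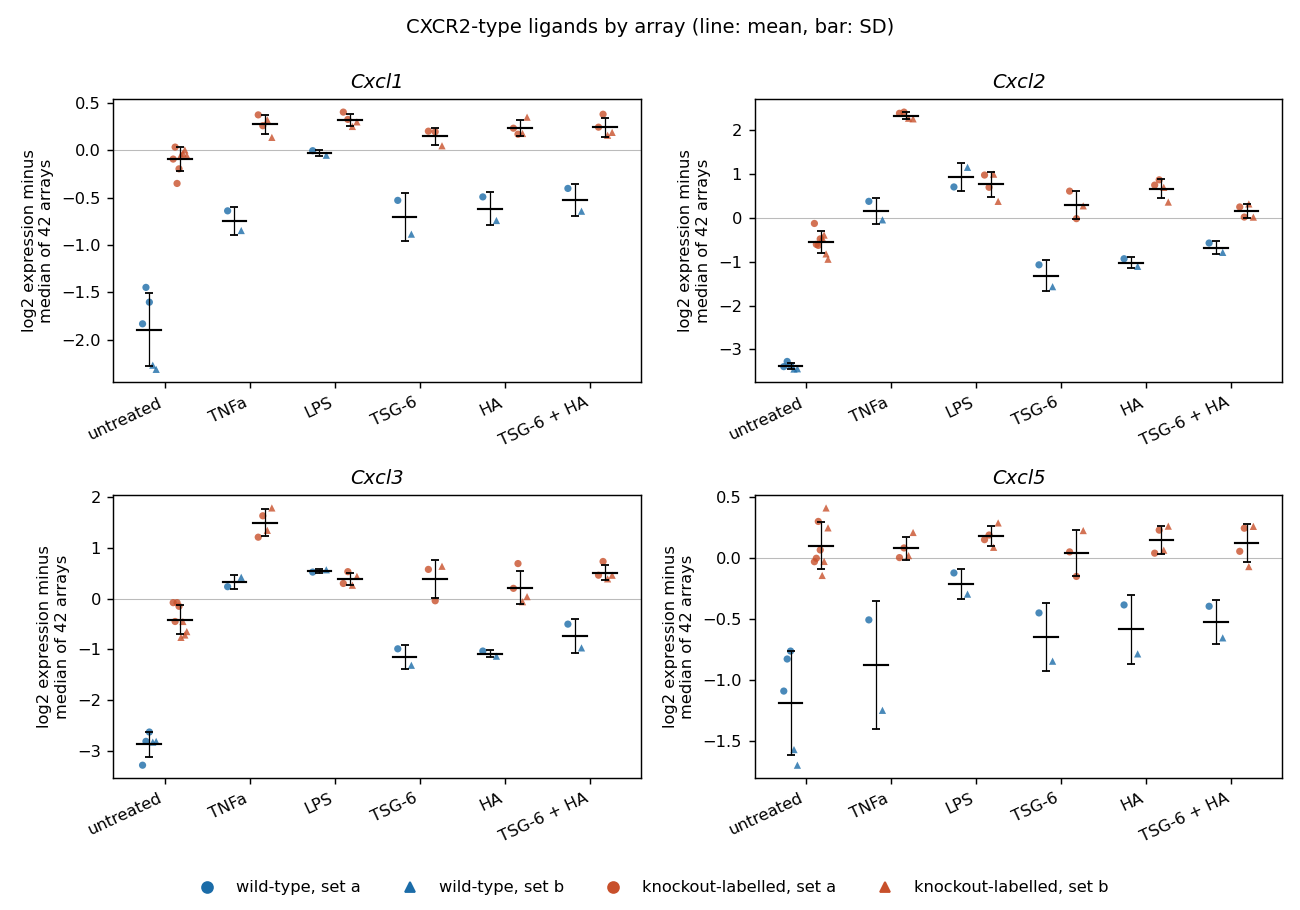
Centred log2 expression of Cxcl1, Cxcl2, Cxcl3 and Cxcl5 on each of the 42 arrays (points; circles and triangles are the culture sets a and b) by treatment, with the group mean (line) and SD (bar); blue is wild-type and orange knockout-labelled. For Cxcl2 the untreated wild-type arrays lie between -3.45 and -3.27 and the TNFa-treated knockout-labelled arrays between 2.26 and 2.41, the extremes of that panel.

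TNFa raised Cxcl2, Cxcl3, Cxcl1 and Pf4 in wild-type cultures. Cxcl2 rose by 3.55 ± 0.18 (SE), an 11.7-fold change (limma, adjusted p = 1.07e-15), and Cxcl3 by 3.20 ± 0.21, 9.20-fold (adjusted p = 2.69e-13). Pf4 rose by 2.04 ± 0.16 (adjusted p = 2.40e-11) and Cxcl1 by 1.15 ± 0.15 (adjusted p = 2.64e-06). Cxcl5 differed by 0.31 ± 0.19 and Ppbp by 0.23 ± 0.68, and neither passed the test. Thus 4 of the 6 members rose, while 2.56% of all genes changed in either direction and 1.41% rose. The 4 genes differed from their untreated arrays in both culture sets taken alone, Cxcl2 by 3.72 and 3.40, Cxcl3 by 3.14 and 3.24, Pf4 by 2.00 and 2.05 and Cxcl1 by 0.99 and 1.45.

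For 5 of the 6 members, all but Ppbp, the largest wild-type estimate was that with LPS. Cxcl2 rose by 4.31 ± 0.18, 19.9-fold (adjusted p = 2.15e-18), Cxcl3 by 3.42 ± 0.21, 10.7-fold (adjusted p = 2.75e-14), and Pf4 by 2.95 ± 0.16, 7.75-fold (adjusted p = 1.75e-15). Cxcl1 rose by 1.87 ± 0.15 and Cxcl5 by 0.98 ± 0.19 (adjusted p = 0.00292), while Ppbp differed by 0.64 ± 0.68 and did not pass. So 5 of the 6 members rose, while 1.19% of all genes changed and 0.737% rose. Their median difference was 2.41, beside -0.000833 over all genes. The rise of Cxcl5 was lost without LPS replicate 1 (adjusted p = 0.157). Within the sets the differences of Cxcl2 were 4.05 and 4.60, those of Pf4 2.71 and 3.17 and those of Cxcl5 0.77 and 1.34.

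TSG-6, HA and their combination each raised Cxcl1, Cxcl2 and Cxcl3 in wild-type cultures, and Cxcl5 and Ppbp passed in none of the 3. With TSG-6, Cxcl2 rose by 2.06 ± 0.18, Cxcl3 by 1.72 ± 0.21 and Cxcl1 by 1.19 ± 0.15, 3 of 6 members, while 0.429% of all genes changed and 0.275% rose, and Pf4 differed by 0.61 ± 0.16 (adjusted p = 0.0902). With HA, 24 genes changed in the whole table (0.132%, with 0.0934% that rose), and 4 of them were members. These were Cxcl2 (2.37 ± 0.18, adjusted p = 2.18e-10), Cxcl3 (1.79 ± 0.21), Pf4 (1.53 ± 0.16) and Cxcl1 (1.28 ± 0.15). With TSG-6 and HA together the same 4 genes rose, Cxcl2 by 2.70 ± 0.18, Cxcl3 by 2.14 ± 0.21, Cxcl1 by 1.37 ± 0.15 and Pf4 by 1.12 ± 0.16, while 0.802% of all genes changed and 0.368% rose. Cxcl5 differed by 0.54, 0.60 and 0.66 under the 3 treatments (each ± 0.19) without passing the test. With the culture set as a block it passed in all 3 (adjusted p = 0.0157 with TSG-6, 0.0136 with HA and 0.00138 with both), and Pf4 with TSG-6 passed too (adjusted p = 0.0443).

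These wild-type comparisons rest on 2 treated arrays each, and the spread was borrowed from the other groups. When only the groups compared were fitted, Cxcl1 did not pass with TNFa (adjusted p = 0.0628), TSG-6 (0.167), HA (0.341) or the combination (0.075), nor did Cxcl5 with LPS (0.202). Among markers of other cells, the endothelial gene Cldn5 fell under all 5 treatments in wild-type cultures (differences from -2.40 to -1.05), and of 6 measured neutrophil markers 1, the granule gene Camp, rose under each, by 1.04 to 1.80. Of 10 macrophage markers and 7 measured platelet markers none passed in the TNFa and LPS comparisons, and the mean of the endothelial markers ranged from 2.75 to 3.46 in the treated against 3.22 to 3.65 in the untreated wild-type arrays. Their part in the results was not tested.

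**Figure D2:**
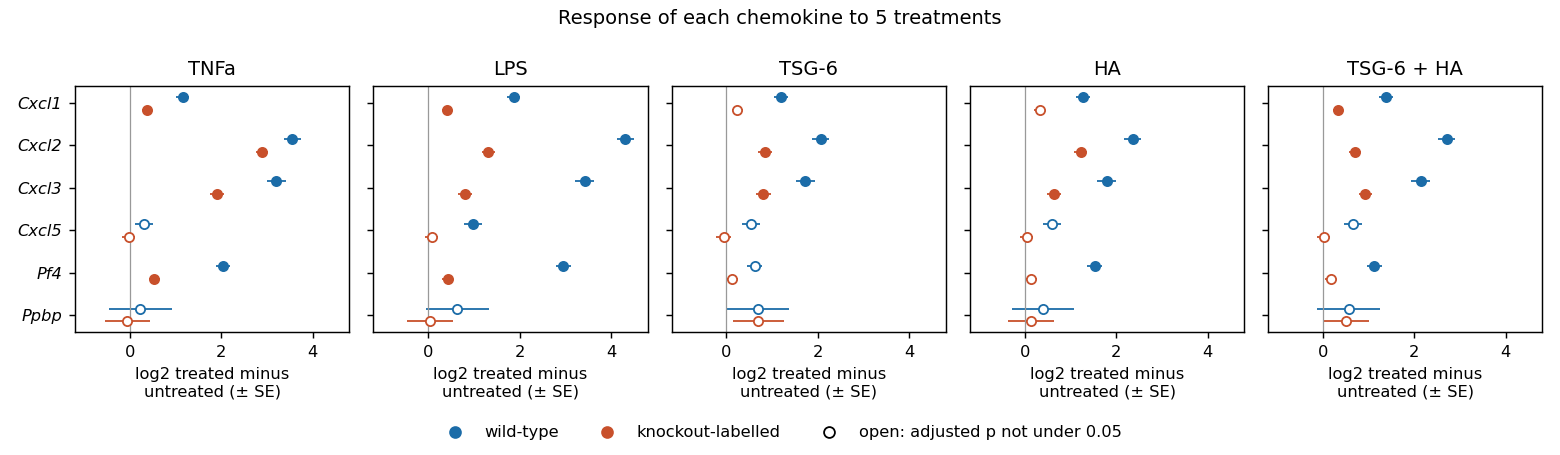
Log2 difference between treated and untreated cultures (x axis, point ± SE) for the 6 members (rows) and 5 treatments (panels), wild-type in blue and knockout-labelled in orange; filled points passed the test. Filled blue points range from 0.98 (Cxcl5 with LPS) to 4.31 (Cxcl2 with LPS), and the orange points of Cxcl1, Cxcl2, Cxcl3 and Pf4 lie to their left.

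In knockout-labelled cultures the untreated values of Cxcl1, Cxcl2, Cxcl3 and Cxcl5 lay above those of untreated wild-type cultures. Cxcl2 ran from -0.94 to -0.13 (median -0.54) on the 8 untreated arrays, and stood at 2.39, 2.41, 2.27 and 2.26 with TNFa, at 0.98, 0.70, 1.00 and 0.38 with LPS, at 0.61, -0.02 and 0.27 with TSG-6, at 0.75, 0.87, 0.70 and 0.36 with HA, and at 0.25, 0.02, 0.32 and 0.02 with the combination. No treated array overlapped the untreated ones, and the TNFa arrays were the highest of the series. Cxcl3 ran from -0.76 to -0.08 (median -0.45) untreated, and stood at 1.21, 1.63, 1.35 and 1.79 with TNFa, at 0.30, 0.53, 0.27 and 0.44 with LPS, at 0.58, -0.04 and 0.64 with TSG-6, at 0.20, 0.69, -0.06 and 0.04 with HA, and at 0.46, 0.73, 0.39 and 0.46 with both. Here too the treated arrays lay above the untreated ones.

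Cxcl1 moved in a narrow range in knockout-labelled cultures. It ran from -0.35 to 0.03 (median -0.05) untreated and stood at 0.37, 0.26, 0.32 and 0.14 with TNFa, at 0.40, 0.33, 0.25 and 0.30 with LPS, at 0.20, 0.20 and 0.05 with TSG-6, at 0.23, 0.17, 0.18 and 0.35 with HA and at 0.24, 0.38, 0.16 and 0.19 with the combination. All treated arrays were above the untreated ones. Cxcl5 ran from -0.14 to 0.41 (median 0.03) untreated, and its 19 treated arrays, from -0.15 to 0.29, covered nearly the same range. Pf4 ran from -0.71 to -0.21 (median -0.43) untreated and stood at -0.04, 0.28, 0.05 and 0.05 with TNFa and at 0.17, 0.04, 0.04 and -0.34 with LPS. Its values under the other treatments, from -0.46 to -0.10, overlapped the untreated ones, as did the LPS array at -0.34.

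Of the 6 members, 4 rose with TNFa in knockout-labelled cultures, where 14% of all genes changed and 6.71% rose. Cxcl2 rose by 2.89 ± 0.13, 7.40-fold (adjusted p = 9.42e-18), Cxcl3 by 1.91 ± 0.15, 3.76-fold, Pf4 by 0.54 ± 0.12 (adjusted p = 0.00106) and Cxcl1 by 0.37 ± 0.11 (adjusted p = 0.0212). The call of Cxcl1 was lost without TNFa replicate 1 or without TNFa replicate 3 (adjusted p from 0.0662 to 0.0866). With LPS the same 4 genes rose, while 1.79% of all genes changed and 0.973% rose, Cxcl2 by 1.32 ± 0.13 (adjusted p = 8.85e-08), Cxcl3 by 0.80 ± 0.15 (adjusted p = 0.00138), Cxcl1 by 0.41 ± 0.11 (adjusted p = 0.0414) and Pf4 by 0.43 ± 0.12 (adjusted p = 0.0489). The last pair stood at the threshold. Cxcl1 lost its call in 10 of 12 fits that left out 1 array (untreated replicate 1, 3, 4, 5, 6 or 8 or any LPS replicate, adjusted p from 0.0509 to 0.175), and Pf4 in 9 of 12 (untreated replicate 1, 2, 3, 4, 6 or 8 or LPS replicate 1, 2 or 3, adjusted p from 0.0552 to 0.266). Within the sets Cxcl2 differed by 2.86 and 2.92 with TNFa and by 1.30 and 1.34 with LPS.

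With TSG-6, 2 of the 6 members rose in knockout-labelled cultures, while 4.75% of all genes changed and 2.1% rose, Cxcl2 by 0.84 ± 0.15 (adjusted p = 0.000358) and Cxcl3 by 0.81 ± 0.17 (adjusted p = 0.00222). With HA the same pair rose, while 0.643% of all genes changed and 0.429% rose, Cxcl2 by 1.22 ± 0.13 (adjusted p = 1.12e-06) and Cxcl3 by 0.64 ± 0.15 (adjusted p = 0.0342). Cxcl3 lost that call in 6 of 12 fits without 1 array (untreated replicate 5, 6, 7 or 8 or HA replicate 1 or 2, adjusted p from 0.0503 to 0.253). With both agents 3 members rose, while 9.94% of all genes changed and 3.33% rose, Cxcl3 by 0.93 ± 0.15, Cxcl2 by 0.71 ± 0.13 and Cxcl1 by 0.34 ± 0.11 (adjusted p = 0.0475). The call of Cxcl1 was lost in 10 of 12 fits (untreated replicate 1, 3, 4, 5, 6 or 8 or any replicate of the combination, adjusted p from 0.0517 to 0.177). Cxcl5 and Ppbp passed the test under none of the 5 treatments in these cultures, the smallest adjusted p being 0.920 for Cxcl5 and 0.620 for Ppbp. Without the arrays high in 18S, 2 members rose with LPS and 1 with HA. Of the 6 measured neutrophil markers in these cultures, Camp rose under all 5 treatments, by 0.78 to 1.22, S100a8 rose under TNFa, TSG-6 and the combination, and the other 4 passed under none. The protease gene Mmp8, which is not among these 6, rose with LPS (0.62 ± 0.16) and with the combination (0.64 ± 0.16). No endothelial or platelet marker passed under any of the 5, and of the 10 macrophage markers 1 rose with TNFa and 1 with the combination. The part of these markers in the results was not tested.

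Untreated knockout-labelled cultures had more Cxcl1, Cxcl2, Cxcl3 and Cxcl5 mRNA than untreated wild-type cultures and, on the deposited scale but not after cyclic loess scaling, less Pf4. Cxcl2 was 2.83 ± 0.13 higher, 7.11-fold (adjusted p = 1.12e-19), Cxcl3 2.46 ± 0.14 higher, 5.49-fold, Cxcl1 1.80 ± 0.10 higher, 3.49-fold, and Cxcl5 1.29 ± 0.13 higher, 2.44-fold (adjusted p = 3.84e-10). Pf4 differed by -2.57 ± 0.11, a 5.94-fold lower level (adjusted p = 2.75e-20). The 5 genes did not overlap between the 8 and the 5 arrays, and Ppbp, at -0.67 ± 0.47, did. The share of all genes without overlap was not counted, so that separation cannot be judged against it. So 5 of 6 members differed, in a comparison in which 37.5% of all genes did. After cyclic loess scaling Pf4 was higher instead, by 1.06 ± 0.13 (adjusted p = 6.56e-08), Cxcl1, Cxcl2 and Cxcl3 stayed higher (0.54 ± 0.10, 1.77 ± 0.13 and 1.24 ± 0.14), and Cxcl5 no longer passed (0.24 ± 0.11, adjusted p = 0.108). That scaling fits a curve against each gene's mean centred value, and the untreated genotype difference correlates with that mean at r = -0.78 over the 18194 genes, so it takes out much of the difference itself. The SD of the difference over genes fell from 0.716 to 0.437.

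On the deposited scale the endothelial markers, too, were mostly lower in knockout-labelled cultures in this comparison. The mean of the 8 markers was 3.46 in untreated wild-type cultures (3.22 to 3.65) and -0.67 in untreated knockout-labelled cultures (-1.50 to 0.19). Tie1, a receptor of endothelial cells, differed by -5.42 ± 0.21 in the knockout-labelled cultures. Of the 10 macrophage markers 1 was lower (Lyz2, which encodes a lysozyme, -1.58 ± 0.31), 1 was higher (Cd163, a scavenger receptor, 0.35 ± 0.10) and 8 did not pass. Of the 7 measured platelet markers 1 was higher (Itga2b, 0.29 ± 0.11) and 1 lower (Gp1bb, -0.74 ± 0.16). Of the fibroblast markers, Prg4, which encodes the joint lubricant lubricin, was higher by 4.41 ± 0.18 and Col1a1 lower (-1.49 ± 0.20). Within the 5 treatments 7 or 8 of the 8 endothelial markers were lower as well, with medians from -4.62 to -4.00. Over all genes 18.9% to 24% differed in these comparisons. The neutrophil marker Camp was higher in knockout-labelled cultures under all 5 treatments, by 1.44 to 2.52 (1.89 with TNFa). S100a8 was higher with TSG-6, HA and the combination, by 2.22 to 2.31, and did not pass with LPS. Elane, Mpo and Ngp passed under none of the 5 treatments, and S100a9 did not pass with LPS, TSG-6, HA or the combination. The untreated differences of these neutrophil markers, and the TNFa differences of S100a8 and S100a9, are not given here. The part of any of these cell types in the differences of the chemokines was not tested.

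Within each treatment Cxcl1, Cxcl2, Cxcl3 and Cxcl5 differed less between the genotypes than in untreated cultures and Pf4 differed more, in the estimates of the deposited scale. With TNFa, Cxcl2 was higher in knockout-labelled cultures by 2.17 ± 0.19, Cxcl3 by 1.17 ± 0.21, Cxcl1 by 1.02 ± 0.16 and Cxcl5 by 0.95 ± 0.20, and Pf4 differed by -4.07 ± 0.16 (5 of 6 members, against 23.5% of all genes), and after cyclic loess the signs of Cxcl1, Cxcl3 and Cxcl5 turned. With LPS, only Pf4 passed (1 of 6, lower, while 24% of all genes differed and 10.6% were lower), at -5.10 ± 0.16, 34.3-fold lower (adjusted p = 1.14e-22). Cxcl2 differed there by -0.17 (95% interval -0.55 to 0.22), Cxcl3 by -0.16 (-0.60 to 0.27), Cxcl1 by 0.35 (0.03 to 0.67, adjusted p = 0.111) and Cxcl5 by 0.39 (-0.02 to 0.80). With TSG-6 these 4 genes were higher by 0.69 to 1.61 and Pf4 stood at -3.06 ± 0.17 (5 of 6, against 18.9%), with the signs of Cxcl1, Cxcl5 and Pf4 turned after loess. With HA they were higher by 0.73 to 1.69 and Pf4 stood at -3.96 ± 0.16 (5 of 6, against 23.3%), with Cxcl1 and Cxcl5 turned after loess. With the combination they were higher by 0.65 to 1.25 and Pf4 stood at -3.52 ± 0.16 (5 of 6, against 21.6%), with Cxcl1, Cxcl2 and Cxcl5 turned after loess.

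Where the direction of a call turned, it did so under cyclic loess and under no other alternative. That scaling removes part of a difference that correlates with the mean centred value. The genotype differences within the treatments did so, at r from -0.83 to -0.62, so its turns cannot decide the direction. After cyclic loess, with LPS, Cxcl1, Cxcl2, Cxcl3 and Cxcl5 differed by -0.93, -1.24, -1.39 and -0.68 (lower in knockout-labelled cultures) and passed the test, and Pf4 stood at -1.72. With TNFa, Cxcl2 remained higher at 1.14 and Pf4 lower at -0.79, and no other member passed. With HA only Cxcl2 passed (0.60), and with TSG-6 or the combination none did. Leaving out 1 array ended the call of Cxcl5 with TNFa (without wild-type TNFa replicate 2, adjusted p = 0.107), with TSG-6 (without wild-type replicate 2 or knockout-labelled replicate 3, adjusted p from 0.0850 to 0.303), with HA (without wild-type HA replicate 2, 0.203) and with the combination (without its wild-type replicate 2, 0.240). That last array also decided the call of Cxcl2 with the combination (0.0531 without it).

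**Figure D3:**
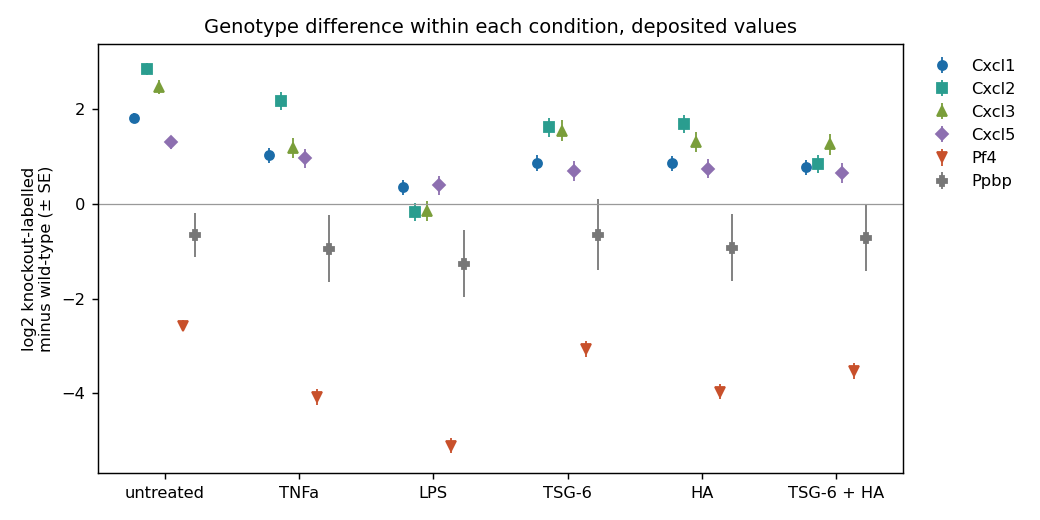
Log2 difference between knockout-labelled and wild-type cultures (y axis, point ± SE) for each member within each condition (x axis), on the deposited scale. Pf4 lies between -5.10 and -2.57 throughout and Cxcl1, Cxcl2, Cxcl3 and Cxcl5 lie above 0 except Cxcl2 and Cxcl3 with LPS. After cyclic loess the sign turns for Pf4 in untreated (1.06) and TSG-6-treated cultures (0.42), for Cxcl1 and Cxcl5 under all 5 treatments, for Cxcl3 with TNFa and for Cxcl2 with TSG-6 and HA.

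Whether the genotypes responded differently to a treatment was tested as the difference of their responses. Cyclic loess turned the direction of none of the members that passed, but it ended both calls for TSG-6. The LPS response was smaller in knockout-labelled cultures for Cxcl2 (-3.00 ± 0.23, adjusted p = 1.14e-10), Cxcl3 (-2.62 ± 0.26, adjusted p = 3.4e-08), Pf4 (-2.53 ± 0.20, adjusted p = 1.14e-10) and Cxcl1 (-1.45 ± 0.19, adjusted p = 1.43e-05). Among all genes 39 passed (0.214%, with 0.148% lower), and 4 of them were members. No single left-out array ended any of these 4 calls, and without the arrays high in 18S that of Cxcl1 was lost (adjusted p = 0.0516). Cxcl5 (-0.90 ± 0.24, adjusted p = 0.207) passed with the culture set as a block (-0.95 ± 0.17, adjusted p = 0.00127), and Ppbp (-0.60 ± 0.85) did not.

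The TNFa response was smaller for Pf4 (-1.50 ± 0.20, adjusted p = 1.45e-05), Cxcl3 (-1.29 ± 0.26, adjusted p = 0.00505) and Cxcl1 (-0.79 ± 0.19, adjusted p = 0.0289), 3 of 6 members, while 0.808% of all genes passed and 0.247% had a smaller response. For Cxcl2, whose TNFa response was the largest of the members in both genotypes, the difference of -0.66 ± 0.23 did not pass (adjusted p = 0.270, 95% interval -1.13 to -0.20). Without wild-type TNFa replicate 2, Cxcl3 did not pass (adjusted p = 0.118) and only Pf4 was left of the 3. Cxcl1 did not pass in 6 of 19 fits without 1 array (wild-type untreated replicate 4 or 5, wild-type TNFa replicate 1 or 2, or knockout-labelled TNFa replicate 2 or 4, adjusted p from 0.0526 to 0.212). Without the arrays high in 18S neither Cxcl1 (0.452) nor Cxcl3 (0.0705) passed, and with only the groups compared Cxcl1 did not (0.183).

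The responses to HA differed between genotypes in 8 genes of the table (0.044%, with 0.0275% lower), 3 of which were Pf4 (-1.39 ± 0.20, adjusted p = 0.000344), Cxcl1 (-0.95 ± 0.19, adjusted p = 0.0395) and Cxcl2 (-1.14 ± 0.23, adjusted p = 0.0425). Pf4 passed in all 19 fits without 1 array, and Cxcl1 and Cxcl2 failed in 12 and 13 of them (adjusted p from 0.0512 to 0.403 and from 0.0590 to 0.377). For TSG-6, 2 members passed, against 0.0824% of all genes (0.055% lower), Cxcl1 (-0.95 ± 0.19, adjusted p = 0.0335) and Cxcl2 (-1.22 ± 0.24, adjusted p = 0.0269), which failed in 10 and 4 of 18 such fits (adjusted p from 0.0502 to 0.702 and from 0.0540 to 0.603). For the combination 4 members passed, against 0.181% of all genes (0.143% lower), Cxcl2 (-2.0 ± 0.23, adjusted p = 5.38e-06), Cxcl1 (-1.04 ± 0.19), Cxcl3 (-1.21 ± 0.26) and Pf4 (-0.95 ± 0.20). Cxcl2 passed in all 19 fits, and Cxcl1, Cxcl3 and Pf4 failed in 1 (adjusted p = 0.0588), 4 (from 0.0523 to 0.167) and 3 (from 0.0513 to 0.385). With only the groups compared, 0 members passed for TSG-6, 1 for HA (Pf4) and 1 for the combination (Cxcl2), and without the arrays high in 18S 1 passed for each (Cxcl2, Pf4 and Cxcl2). With all probe sets tested, 1 passed for TSG-6 (Cxcl2) and 1 for HA (Pf4). The arrays that decided these calls belong to both genotypes. For TSG-6 they were wild-type untreated replicates 1, 4 and 5, knockout-labelled untreated replicates 6 and 7 and all 5 TSG-6 arrays. For HA they were wild-type untreated replicates 1, 3, 4 and 5, knockout-labelled untreated replicates 2, 4, 5, 6, 7 and 8, and all 6 HA arrays. For the combination they were wild-type untreated replicate 1, both wild-type arrays of the combination and knockout-labelled replicates 1, 3 and 4. All 5 response differences use the untreated arrays of both genotypes, so they are not independent of one another. The endothelial marker Cldn5 also responded differently, to LPS (2.27 ± 0.31), TNFa (1.39 ± 0.31) and the combination (1.51 ± 0.31), and its part in these differences was not tested.

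The inflammatory stimuli were also set against each other directly. In wild-type cultures Pf4 was lower with TNFa than with LPS (-0.92 ± 0.19, adjusted p = 0.0113), 1 of 6 members against 0.445% of all genes (0.132% lower), and that call was lost without TNFa replicate 1 or 2 or LPS replicate 2 (adjusted p from 0.0638 to 0.628). Cxcl1 (-0.72 ± 0.18) and Cxcl2 (-0.76 ± 0.22) were lower with TNFa on both arrays without passing. With the culture set as a block 3 members passed, Pf4, Cxcl1 (adjusted p = 0.00198) and Cxcl5 (0.0261), whereas 0 passed after cyclic loess, with only the groups compared or without the arrays high in 18S (adjusted p of Pf4 0.0852, 1.00 and 0.966). In knockout-labelled cultures Cxcl2 was higher with TNFa than with LPS by 1.57 ± 0.16 (adjusted p = 4.61e-09) and Cxcl3 by 1.11 ± 0.17 (adjusted p = 3.49e-05), 2 of 6 against 3.48% of all genes (2.43% higher). The 4 TNFa arrays lay above the 4 LPS arrays for both genes.

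Ppbp behaved unlike the other members. It stood at -0.72, -0.45, -0.61, 1.97 and 1.99 in untreated wild-type cultures, at -0.51 and 1.83 with TNFa, 0.01 and 2.14 with LPS, 0.11 and 2.12 with TSG-6, -0.31 and 1.98 with HA, and 0.12 and 1.87 with the combination. The 8 arrays of the first wild-type culture set lay between -0.72 and 0.12 and the 7 of the second between 1.83 and 2.14, whatever the treatment. The sets were found without the members, and Ppbp falls along them. In knockout-labelled cultures it ran from -0.81 to 0.73 without such a gap, with a median of 0.18 on the 10 arrays high in 18S and of -0.35 on the other 17. Over the 42 arrays its correlation with the 18S probe set was 0.49, whereas those of the other members lay between 0.010 and 0.11. Ppbp passed in none of the 23 comparisons. With the culture set as a block its SE for the wild-type treatments fell from 0.68 to 0.29, and its differences there, from 0.0012 to 0.46, did not pass.

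**Figure D4:**
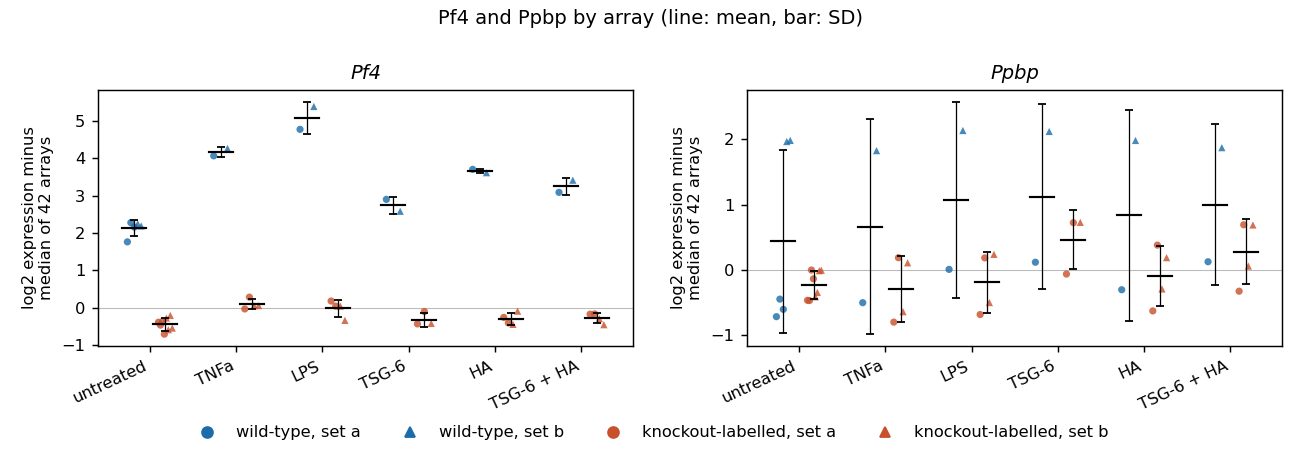
Centred log2 expression of Pf4 (left) and Ppbp (right) on each array (points; circles and triangles are culture sets a and b) by treatment, with the group mean (line) and SD (bar); blue is wild-type and orange knockout-labelled. Every wild-type array exceeds every knockout-labelled array for Pf4 on this scale (lowest 1.76, highest 0.28), an order that cyclic loess turns for the untreated and TSG-6 groups, and the wild-type arrays of Ppbp split by culture set.

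The 3 probe sets of Cxcl1 gave the same pattern, with correlations of 0.985 and 0.991 to the one used. Over the 42 arrays the pair most alike among the members was Cxcl2 and Cxcl3 (r = 0.97 over all arrays, 0.99 over the 15 wild-type and 0.89 over the 27 knockout-labelled arrays). Cxcl2 and Pf4 correlated at 0.94 over wild-type arrays and 0.71 over knockout-labelled arrays but at -0.30 over all. Once group means were removed, Cxcl2 and Cxcl3 correlated at 0.30 and 0.35 in the 2 genotypes. These points share treatments and culture sets and are given as a description. Genes whose values were most like those of a member over the 42 arrays were Cxcl16 and Ccl7, both chemokines, for Cxcl2 (r = 0.96 and 0.93) and for Cxcl3 (0.96 and 0.94). Lcn2, an iron-sequestering protein, was the nearest to Cxcl1 (0.95) and to Cxcl5 (0.97), and Zc3h12a, which encodes an RNase that degrades cytokine mRNAs, was among the 3 nearest to Cxcl1 (0.95). For Pf4 they were Lcp2, Sh3tc1 and Tlr13 (0.97, 0.97 and 0.96), and 140 genes exceeded 0.9. For Ppbp they were Pmvk, Aprt and Elovl6 (0.90 each).

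Of the receptors Cxcr2, Cxcr3 and Ackr1 (Cxcr1 was not measured), none passed under any treatment, and Cxcr3 was lower in untreated knockout-labelled cultures (-0.74 ± 0.12). Cxcr2 was higher in knockout-labelled than in wild-type cultures with LPS (0.56 ± 0.14, adjusted p = 0.00284) and with the combination (0.62 ± 0.14). Of 9 measured NF-kB subunits, co-factors and feedback inhibitors, 8 rose with TNFa in wild-type cultures and 8 in knockout-labelled ones, with medians of 0.95 and 0.81 beside 0.000451 and 0.00843 over all genes. The inhibitors Tnfaip3 and Nfkbia rose by 2.30 ± 0.18 and 1.35 ± 0.10 in wild-type and by 2.49 ± 0.13 and 1.25 ± 0.07 in knockout-labelled cultures. Over all genes 1.41% rose with TNFa and 0.737% with LPS in wild-type cultures, and 6.71% and 0.973% in knockout-labelled ones. With LPS 3 of the 9 rose in wild-type cultures and 1 in knockout-labelled ones, and the difference between these counts was not tested. Nfkbiz, the co-factor IkB-zeta, rose in both, by 1.59 ± 0.14 and 0.56 ± 0.10, and was the 1 gene of this list that rose under TSG-6 and under HA in wild-type cultures (0.81 ± 0.14 and 0.97 ± 0.14). It was higher by 1.36 ± 0.09 in untreated knockout-labelled than in wild-type cultures, where 5 of the 9 were higher in a comparison in which 37.5% of all genes differed.

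Among 9 regulators of chemokine mRNA stability, Zc3h12a rose under all 5 wild-type treatments, most with LPS (1.65 ± 0.14), and Arid5a, which stabilises cytokine mRNAs, rose with LPS (0.51 ± 0.13). Zc3h12a was higher by 1.98 ± 0.09 in untreated knockout-labelled cultures, where 3 of the 9 were higher and 2 lower, while 37.5% of all genes differed. Of 14 measured receptors and adaptors that signal to NF-kB, 1 rose with TNFa and 0 with LPS in wild-type cultures, and 6 and 4 did in knockout-labelled ones. Over all genes 1.41% and 0.737% rose in wild-type and 6.71% and 0.973% in knockout-labelled cultures, so the counts of the genotypes are set against unequal shares, and the difference between them was not tested. In the untreated genotype comparison 7 of them were higher in knockout-labelled cultures, among them the IL-17 receptor chain Il17rc (1.72 ± 0.09), and 1, the LPS co-receptor Cd14, was lower (-1.28 ± 0.14), again with 37.5% of all genes called. Of 13 other signals to neutrophils, 5 rose with TNFa and 6 with LPS in wild-type cultures and 6 and 7 in knockout-labelled ones, beside the same shares of all genes. Among those that rose with LPS in wild-type cultures was the selectin gene Selp (1.64 ± 0.39). Like the endothelial markers, Selp was lower in knockout-labelled than in wild-type cultures with LPS (-7.13 ± 0.40), and which cells it came from was not tested. Csf2, the gene of the growth factor GM-CSF, rose with LPS by 4.29 ± 0.26 in wild-type and by 1.09 ± 0.19 in knockout-labelled cultures, and Mmp9, a protease gene, by 1.35 and 1.77.

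Of the chromosomal neighbours, Cxcl15, which lies among the members, passed in none of the 23 comparisons. Mthfd2l, the gene after Cxcl2, rose with TNFa by 1.05 ± 0.20 in wild-type and by 1.14 ± 0.14 in knockout-labelled cultures and was higher in untreated knockout-labelled cultures (0.70 ± 0.13). In knockout-labelled cultures it also rose with LPS (0.59 ± 0.14), TSG-6 (0.90 ± 0.16) and the combination (1.03 ± 0.14). Ereg, a growth factor gene further along, rose with TNFa in both genotypes (0.86 ± 0.20 and 0.54 ± 0.15) and was higher in knockout-labelled cultures in all 6 conditions, by 0.74 to 1.57, and Rassf6, on the other side of the block, was higher in untreated knockout-labelled cultures (0.76 ± 0.26).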

How the data were processed

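RNA of 42 cultures was hybridised to 1-colour Affymetrix arrays, 1 per culture. The authors' deposited values are log2 expression made with RMA (no version stated), per the submitters' processing notes. The log base is not stated and was taken as 2. Every probe set has a median of 0 over the 42 arrays in the deposited values, so absolute levels and signal over background cannot be seen, and precision is limited by how many arrays each group has. No genome build is named for the array values.

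Of 45101 probe sets, 34958 name 1 gene, 932 several and 9211 none in the platform annotation. For each of 18194 genes the probe set with the largest SD was used, avoiding those with a correlation above 0.7 to the 18S probe set where another existed. Group means of the 12 groups were fitted over all 42 arrays with limma 3.58.1 in R 4.3.3 (lmFit and eBayes, two-sided), giving 23 comparisons. P-values were adjusted by Benjamini-Hochberg over all genes within each comparison, with 0.05 as the threshold. Errors of differences are SE, those of groups SD. The scripts were tested on simulated data.

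The members and the gene lists were chosen with earlier results of these data known. Members are given in every comparison, of each list at most the 3 genes with the smallest adjusted p in a comparison are named, and for likeness the 3 genes with the highest Pearson correlation over the arrays. The 2 culture sets of each genotype were found from probe sets other than the members that split its arrays with a gap of at least 1. Same-numbered replicates deviated together in most but not all pairs of groups. Their correlations ran from -0.65 to 0.69 in wild-type cultures (median 0.51, 25 of 30 over 0.1). In knockout-labelled cultures they ran from -0.26 to 0.72 (median 0.26, 34 of 55 over 0.1). Same-numbered replicates were not treated as pairs in the main fit, so its p-values do not allow for this likeness. Alternatives were cyclic loess, all probe sets, the mean of a gene's probe sets, a filter on low SD, the groups compared only, blocks for replicate number or culture set, leaving out arrays high in 18S, and leaving out each array in turn. Promoter windows were aligned globally with Biopython 1.88 (match 2, mismatch -1, gap opening -5, extension -0.5), and identity is the share of identical aligned bases in 300.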

Additional observations from a re-analysis of the deposited data

Results flagged for a closer look

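The lowest of the 5 untreated wild-type arrays for Pf4, replicate 1 at 1.76, lay apart from the others (2.15 to 2.27), by 0.769 of the range of the group. It was the 1 case of 36 examined (6 genes in each of the 6 groups with 4 to 10 arrays). Chance gives about 1 in 20 cases, so 1 of 36 is no more than chance gives.

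Responses that differed between the genotypes by the test of the difference (limma, adjusted p under 0.05) were all smaller in knockout-labelled cultures. For LPS they were Cxcl2 (-3.00), Cxcl3 (-2.62), Pf4 (-2.53) and Cxcl1 (-1.45). For TNFa they were Pf4 (-1.50), Cxcl3 (-1.29) and Cxcl1 (-0.79). For HA they were Pf4 (-1.39), Cxcl2 (-1.14) and Cxcl1 (-0.95). For TSG-6 they were Cxcl2 (-1.22) and Cxcl1 (-0.95), and for TSG-6 with HA Cxcl2 (-2.0), Cxcl3 (-1.21), Cxcl1 (-1.04) and Pf4 (-0.95). On the deposited scale Cxcl1, Cxcl2 and Cxcl3 started higher in untreated knockout-labelled cultures, whereas Pf4 started lower. The mean of Cxcl2 was -0.56 in knockout-labelled and -3.38 in wild-type cultures untreated, and 0.76 and 0.93 with LPS.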

How the results depend on the processing

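Of the 138 pairs of member and comparison, 80 passed the test, 38 of them under every alternative tried and 59 without any single array. Each alternative changed 1 choice. The 12 reversals all came with cyclic loess, in differences between genotypes. They were Pf4 untreated (1.06) and with TSG-6 (0.42), Cxcl1 with TNFa (-0.21), TSG-6 (-0.32), HA (-0.44) and TSG-6 with HA (-0.39), Cxcl5 under the same 4 treatments (-0.061, -0.28, -0.34 and -0.30), Cxcl3 with TNFa (-0.018) and Cxcl2 with TSG-6 and HA (-0.13). By its construction that scaling removes part of a difference that correlates with the mean centred value. Under it the members that differed between genotypes numbered 2 with TNFa, 5 with LPS, 0 with TSG-6, 1 with HA and 0 with both, and 0 passed for the TSG-6 response difference and for TNFa against LPS in wild-type cultures. It moved the share of higher calls among all genes from 70.8% to 86.2% for HA in wild-type cultures, from 30.8% to 17.8% for the LPS response difference and from 37.5% to 0% for that of HA. Scaling by array medians, chosen after seeing the data, kept 77 of the 80 calls.

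With the groups compared only, 1 member passed for HA in knockout-labelled cultures, 0 for the TSG-6 and 1 each for the HA and TSG-6 with HA response differences, and 0 for TNFa against LPS in wild-type cultures; 16 of the 80 calls were lost, in fits with fewer arrays. Without the 15 arrays high in 18S, 21 calls were lost, and 2 members passed for LPS and 1 for HA in knockout-labelled cultures, 2 for genotype with TSG-6 and HA, 1 for each of the TNFa, TSG-6, HA and combined response differences, and 0 for TNFa against LPS in wild-type cultures. With all probe sets tested 1 member passed for the TSG-6 and 1 for the HA response difference. Beyond the smaller number of arrays, the cause was not tested.

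With the replicate number as a block, 83 pairs passed, and 7 of the 80 calls were lost. The block gave 5 members for TSG-6 in wild-type cultures, 1 for the TSG-6 response difference and 3 for TNFa against LPS in wild-type cultures. Treated arrays deviated most like untreated or treated arrays of their own number in 10 of 10 wild-type and 17 of 19 knockout-labelled cases, a hint from the data and not from the design. Within a genotype, treated arrays of the same number also share a culture set, so likeness by number and by set cannot be told apart. Untreated numbers do not always match (wild-type replicate 2 is in set a untreated and in set b treated), so the number block mixes the sets. With the culture set as a block, 90 pairs passed, none of the 80 was lost, and 5 members passed for TSG-6 and 3 for TNFa against LPS in wild-type cultures.

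Leaving out each array in turn gave 4 to 5 members for LPS and 4 to 5 for TSG-6 with HA in wild-type cultures, and 3 to 4 for TNFa, 2 to 4 for LPS, 1 to 2 for HA and 2 to 3 for TSG-6 with HA in knockout-labelled cultures. It gave 4 to 5 for genotype with TNFa, TSG-6 and HA and 3 to 5 with the combination. Response differences had 1 to 3 (TNFa), 0 to 2 (TSG-6), 1 to 3 (HA) and 2 to 4 (combination), and TNFa against LPS in wild-type cultures 0 to 1.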
